A study of Drosophila melanogaster with 3 samples.

Results

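Binding of topi at 34 genes of DNA replication and mitosis was examined, out of 13968 annotated protein-coding genes of Drosophila melanogaster. The genes were taken by name: 13 act at replication origins, in the replicative helicase or at the fork, 2 encode the subunits of ribonucleotide reductase, 12 encode cyclins, cell cycle kinases and their regulators, and 7 act at the kinetochore, in the spindle checkpoint or in cell division. All 34 names were found in the annotation. The data are chromatin immunoprecipitation and sequencing (ChIP-seq) of whole white prepupae, males and females together, from a transgenic line that stably carries topi with eGFP at its C terminus. The immunoprecipitation used an antibody against GFP, and chromatin was sonicated, with a size range of 200 to 800 bp. There is 1 group of 3 biological replicates, all of the same line, and no second condition. No library of untagged animals was analysed here, so peaks that form without the tag cannot be told apart from topi binding. Because whole animals were used, binding in few cells and weak binding in many cells cannot be told apart either.

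Topi, a protein with zinc fingers, belongs to the meiotic arrest complex of the testis (tMAC), which activates genes of spermatocytes and is built in part from paralogues of the Myb-MuvB (dREAM) proteins. The Myb-MuvB complex is known in proliferating cells for its binding at genes of the G2 and M phases. Replication begins when the origin recognition complex and the licensing factor dup load the Mcm helicase on DNA, and entry into mitosis depends on Cdk1 with its cyclins, on the phosphatase stg and on the polo and Aurora kinases.

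The replicates and their pool were each represented by 30000 relaxed peaks, background regions included, and a stricter set held the 8424 peaks that met the authors' threshold of irreproducible discovery rate (IDR). The signal of a peak is the score for enrichment over the control alignment, which all replicates share. It is not scaled between libraries, so peaks are compared between lists by rank, with rank 1 the strongest. The strongest peaks of a replicate are its top 8424, as many as the IDR set holds. Read depth cannot be had from such lists. Positions are those of the dm6 build, and a gene counts as having a promoter peak where a summit lies within 500 bp of any of its transcription start sites (TSSs).

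Sequences are shown for the 6 genes with the highest IDR promoter signals outside 1 chromosome arm that is not shown, of which Mcm5 and E2f1 lie below the median signal of all genes with such a peak, and, for contrast, for 3 genes without a promoter peak in any list (Orc5, PolA1 and mad2, chosen after their values were seen). All are read from the NCBI Release 6 genome, the same assembly as dm6, 5′ to 3′ on the strand of the gene. For the first 6 they cover up to 75 bp on each side of the summit, without bases of protein-coding exons, and for the others the bases just upstream of the TSS. Capitals mark 3 motifs on either strand: the DRE (TATCGATA), an element of many fly promoters of replication genes, the CHR (TTTGAA), known from mammalian genes of G2 and M phase, and TATAAA, the core of the TATA box. Orc5, PolA1 and mad2 were taken because their promoters hold a DRE, so finding it in their stretches was fixed beforehand. Mcm3, Mcm7 and pav also lacked a promoter peak in any list, but their promoters held no DRE and they are not shown. The DRE appears in the stretches of Orc5, PolA1 and mad2, the CHR in those of aurA, CycE, E2f1 and Orc5, and TATAAA in those of Cdk1, Mcm2 and CycE. The stretch of Mcm5 holds none of them.
aurA (chr3R:11962922-11963072, plus strand): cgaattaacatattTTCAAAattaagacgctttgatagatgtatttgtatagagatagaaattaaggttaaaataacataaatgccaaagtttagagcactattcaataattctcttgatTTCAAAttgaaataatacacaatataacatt
Cdk1 (chr2L:10386385-10386535, minus strand): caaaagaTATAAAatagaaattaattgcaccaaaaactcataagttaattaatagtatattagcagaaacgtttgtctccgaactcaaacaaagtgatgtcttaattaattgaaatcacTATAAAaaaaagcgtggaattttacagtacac
Mcm2 (chr3R:8264762-8264912, plus strand): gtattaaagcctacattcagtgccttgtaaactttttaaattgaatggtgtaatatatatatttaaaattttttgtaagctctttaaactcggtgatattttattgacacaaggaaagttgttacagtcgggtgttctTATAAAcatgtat
CycE (chr2L:15747006-15747156, minus strand): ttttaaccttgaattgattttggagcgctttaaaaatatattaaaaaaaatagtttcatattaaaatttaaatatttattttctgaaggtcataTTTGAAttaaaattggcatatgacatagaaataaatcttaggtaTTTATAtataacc
Mcm5 (chr3R:10788227-10788365, plus strand): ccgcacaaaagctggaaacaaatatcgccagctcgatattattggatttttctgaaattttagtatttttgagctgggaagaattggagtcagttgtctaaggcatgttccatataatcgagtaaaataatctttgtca
E2f1 (chr3R:21633192-21633342, minus strand): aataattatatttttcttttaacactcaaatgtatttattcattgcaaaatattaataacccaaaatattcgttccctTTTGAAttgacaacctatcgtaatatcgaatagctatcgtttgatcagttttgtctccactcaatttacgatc
Orc5 (chr2L:13829742-13829836, plus strand): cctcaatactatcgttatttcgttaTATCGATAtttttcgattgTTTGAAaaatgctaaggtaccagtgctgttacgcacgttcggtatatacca
PolA1 (chr3R:21671751-21671901, minus strand): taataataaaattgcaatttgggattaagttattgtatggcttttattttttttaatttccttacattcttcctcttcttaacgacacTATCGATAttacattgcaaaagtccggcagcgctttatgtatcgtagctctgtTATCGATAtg
mad2 (chr3L:5813094-5813244, minus strand): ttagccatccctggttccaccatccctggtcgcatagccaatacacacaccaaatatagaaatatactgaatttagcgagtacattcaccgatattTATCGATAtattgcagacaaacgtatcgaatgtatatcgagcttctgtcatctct

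An IDR promoter peak lay at 12 of the 34 genes (35.3%), against a background of 24.3% of protein-coding genes. They are the licensing regulators dup and geminin, the helicase subunits Mcm2 and Mcm5, the reductase subunit RnrS, the cyclin CycE, the kinases Cdk1, polo and aurA, the transcription factor E2f1, the chromosomal passenger protein Incenp and the centralspindlin subunit tum. By role, 4 of 13 replication genes (30.8%), 1 of the 2 reductase genes, 5 of 12 cyclin, kinase and regulator genes (41.7%) and 2 of 7 kinetochore, checkpoint and division genes (28.6%) had one. The shares of the roles rest on few genes, and no test was made between them. In the pooled relaxed list 20 of 34 genes (58.8%) had a promoter peak, against 42.5% of protein-coding genes. There the roles lay further apart, with 11 of 12 cyclin, kinase and regulator genes (91.7%), 6 of 13 replication genes (46.2%), 1 of 2 reductase genes and 2 of 7 kinetochore and division genes (28.6%). Among 122 other cell cycle genes, described below, the same roles lay closer together in this list. Their shares were 21 of 36 (58.3%), 12 of 31 (38.7%), 2 of 4 for nucleotide synthesis and 27 of 51 (52.9%).

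The strongest peaks of replicates 1, 2 and 3 reached the promoters of 14, 13 and 12 of the 34 genes (41.2%, 38.2% and 35.3%), where 22.0%, 27.4% and 25.5% of protein-coding genes had one. The mean over replicates was 38.2% ± 2.94 (SD, n = 3) of the listed genes and 25.0% ± 2.73 (SD, n = 3) of all protein-coding genes. The lowest replicate of the listed genes lay above the highest replicate of all genes. All replicates score the same 34 genes, so this is a spread between libraries. It does not measure how far a share of 34 genes may lie from the background. Promoter peaks among the strongest of all 3 replicates were found at 8 genes, dup, Mcm2, RnrS, Cdk1, E2f1, aurA, Incenp and tum, or 23.5% of the list against 16.4% of protein-coding genes. All 8 belonged to the IDR set. The other 4 IDR genes, geminin, Mcm5, CycE and polo, had one in 2 of the 3 replicates. Each replicate was also left out, keeping IDR peaks that overlapped the strongest peaks of both other replicates. Those of Mcm5 and CycE were then lost without replicate 1, those of geminin and polo without replicate 2, and those of all 4 genes without replicate 3. Mcm5 in replicate 2 and polo in replicate 1 did have weaker promoter peaks, at ranks 8643 and 8979.

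**Figure D1:**
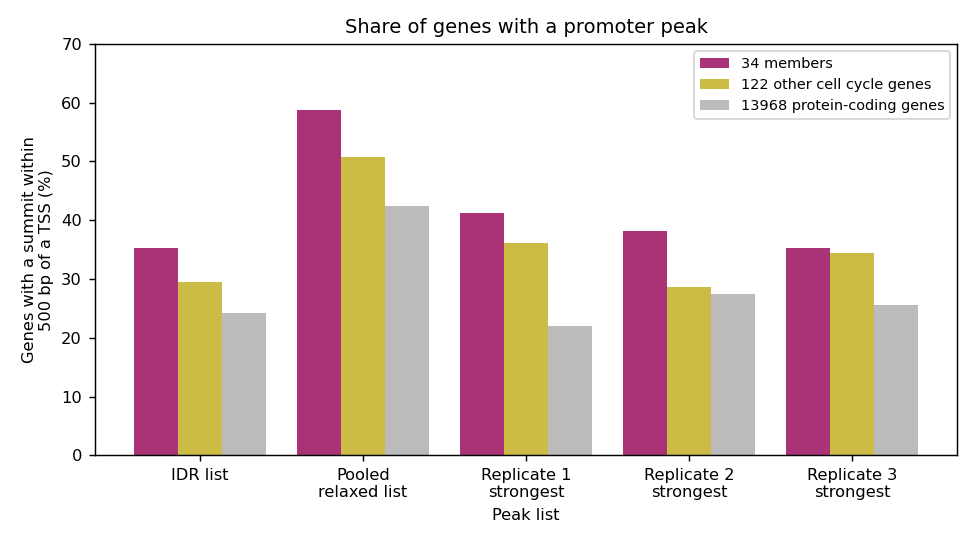
Bars give the percentage of genes with a summit within 500 bp of a TSS (vertical axis) in the IDR list, the pooled relaxed list and the top 8424 peaks of each replicate (horizontal axis), for the 34 replication and mitosis genes, 122 other cell cycle genes and all 13968 protein-coding genes. The bar of the 34 genes is the highest in each of these, from 35.3% in the IDR list to 58.8% in the pooled relaxed list.

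**Figure D2:**
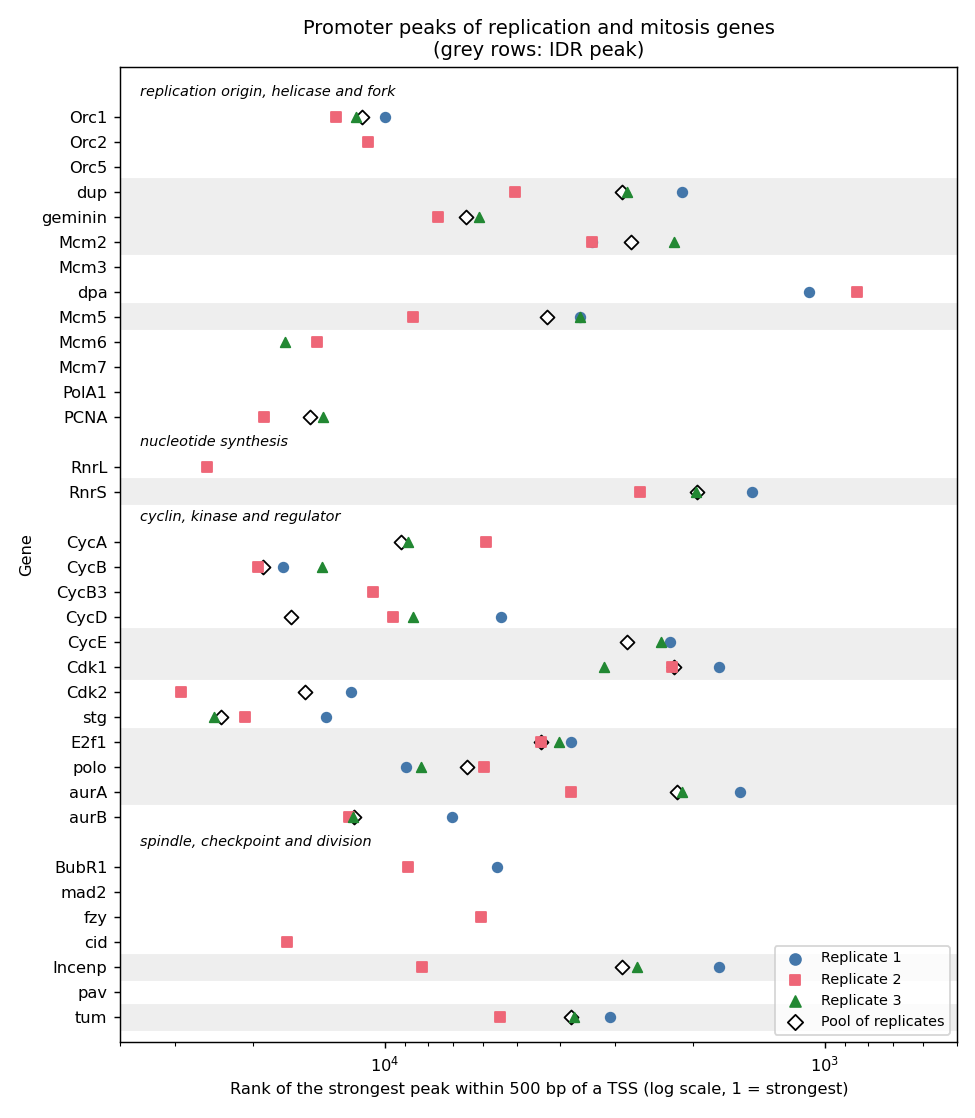
Points give the rank of the strongest promoter peak of each of the 34 genes (horizontal log axis, stronger to the right) in replicates 1 to 3 and in the pool, with genes grouped by role on the vertical axis. Grey rows mark the 12 genes with an IDR promoter peak, whose pooled ranks run from 1959 to 6551, and rows without a point have no promoter peak in any list.

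Of the replication genes, the helicase subunits divided. The Mcm2 peak (chr3R:8264708-8264986) had a pooled signal of 254 and rank 2756, with ranks 3380, 3385 and 2206 in replicates 1, 2 and 3. Its summit lay 133 bp upstream of the TSS. The Mcm5 peak (chr3R:10788075-10788504), with a pooled signal of 177 and rank 4291, had its summit 234 bp upstream and ranks of 3612, 8643 and 3612. Replicate 2 placed it lowest, outside its strongest peaks. Mcm3 and Mcm7 had no promoter peak in any of the 5 lists. Mcm6 had none in the pool, and its replicate peaks stood at rank 14253 in replicate 2 and 16854 in replicate 3, with none in replicate 1. Thus 2 of the 6 subunits of this hexamer had an IDR promoter peak, Mcm2 and Mcm5, and dpa, the fly Mcm4, differed between lists.

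The promoter of dpa held a peak of rank 1086 in replicate 1 (signal 117) and of rank 848 in replicate 2 (signal 191). Their summits lay 126 and 117 bp upstream of an inner TSS. Both were inside the gene, in an exon outside the coding sequence. The gene didum starts 2 bp from a TSS of dpa on the other strand, and both summits also lay within 500 bp of a didum TSS. Replicate 3, the pool and the IDR set had no summit within 500 bp of its TSSs. The peaks of replicates 1 and 2 rank above the promoter peaks of any of the 12 IDR genes in the same replicates, the strongest of which are RnrS at 1465 and Cdk1 at 2231. This pattern, a strongest peak in at least 2 replicates without a pooled one, occurred at 209 protein-coding genes (1.5%). At the level of sites, 65 were shared by the strongest peaks of replicates 1 and 2 with no pooled summit within 500 bp, 90 by replicates 1 and 3 and 130 by replicates 2 and 3. Why such sites are missing from the pooled list was not tested.

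Both regulators of origin licensing had IDR peaks. Dup, the fly Cdt1, loads the helicase, and its peak (chr2R:15380606-15380800, signal 245, rank 2892) had a summit 87 bp upstream of a TSS and replicate ranks of 2117, 5056 and 2812. Geminin inhibits dup, and its peak (chr2R:6656250-6656679, signal 120, rank 6551) was the weakest of the 12. Its summit lay 64 bp upstream of an inner TSS. It ranked 7589 in replicate 2 and 6102 in replicate 3 and was missing from the list of replicate 1. Of the 3 origin recognition genes on the list none had an IDR promoter peak. Orc1, an ATPase subunit, had a pooled peak at rank 11270, with ranks 9980, 12953 and 11627. Orc2 had a peak in replicate 2 alone, at rank 10950, and Orc5 had none in any list. The sliding clamp PCNA reached pooled rank 14800 and had no peak in replicate 1, and PolA1, the catalytic subunit of DNA polymerase alpha, had none in any list.

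The 2 subunits of ribonucleotide reductase, the enzyme that makes deoxyribonucleotides, differed in their peaks. RnrS, the small subunit, had the strongest IDR promoter peak of the 34 genes (chr2R:11985426-11985729), with a pooled signal of 328 and rank 1959. Its replicate signals were 97.4, 94.9 and 139 and its replicate ranks 1465, 2630 and 1962, with the summit 196 bp upstream of the TSS. RnrL, the large subunit, had no promoter peak in the IDR set, the pool or replicates 1 and 3. In replicate 2 it had a peak at rank 25410 with a signal of 11.9. RnrS thus ranked far above RnrL in replicate 2, where both had a peak.

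Among kinases, aurA and Cdk1 followed RnrS. The peak of aurA, the centrosomal Aurora kinase (chr3R:11962782-11963211), had a signal of 304, rank 2171 and replicate ranks of 1562, 3787 and 2119, with the summit 127 bp upstream of the TSS. The peak of Cdk1, the kinase that drives entry into mitosis (chr2L:10386376-10386603), had a signal of 299, rank 2208 and replicate ranks of 1741, 2231 and 3178, with the summit 198 bp upstream. Both were among the strongest peaks of every replicate. The peak of polo, a kinase of mitotic entry and exit (chr3L:20309727-20310156), was weaker, with a signal of 121, rank 6504 and a summit 105 bp upstream of an inner TSS. It ranked 8979 in replicate 1, outside the strongest peaks there, 5957 in replicate 2 and 8293 in replicate 3. The other Aurora kinase, aurB, acts in the chromosomal passenger complex and had no IDR peak. Its pooled peak stood at rank 11747, and its replicate ranks were 7060, 12080 and 11823.

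Of the 5 cyclins, CycE, which drives entry into S phase with Cdk2, was alone in having an IDR promoter peak. That peak (chr2L:15746916-15747131) had a signal of 250 and rank 2823, and its summit lay in an intron 471 bp upstream of an inner TSS, the farthest of the 12. Replicates 1 and 3 ranked it 2255 and 2354, and replicate 2 had no summit within 500 bp of that TSS. A neighbouring IDR summit 684 bp upstream of the same TSS, with a signal of 233, was matched in replicate 2 at rank 3916. CycA, CycB, CycD and Cdk2 had pooled promoter peaks at ranks 9210, 18966, 16343 and 15169, below the IDR set. CycB3 had a peak in replicate 2 alone, at rank 10646. For CycA the replicates disagreed, with rank 5883 in replicate 2, 8848 in replicate 3 and none in replicate 1. The CycA summit lay 161 bp downstream of the TSS in replicate 2 and 29 bp upstream in replicate 3. The strongest CycD promoter peaks had rank 5451 in replicate 1, 9577 in replicate 2 and 8638 in replicate 3. Their summits differed, lying 173 bp upstream, 215 bp downstream and 63 bp downstream of the TSS.

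E2f1, the activating E2F factor of the G1 to S transition, was the gene of the list with the most peaks. Its 40568 bp held 15 IDR summits, 14 in introns and 1 in an exon outside the coding sequence. Only 2 of the 15 lay within 500 bp of 1 of its 5 TSSs. The stronger of these (chr3R:21633222-21633374) had a signal of 172, rank 4427 and replicate ranks of 3786, 4427 and 4027, with the summit 194 bp upstream of an inner TSS. The strongest of all (chr3R:21641495-21641926) lay in an intron 3235 bp upstream of its nearest TSS, with a signal of 617, rank 694 and replicate ranks of 624, 673 and 823. Signals of the 15 ran from 94.2 to 617 with a median of 157. A replicate peak was found within 200 bp of the summit in all 3 replicates for 14 of them and in 2 replicates for 1, but several neighbouring summits matched the same replicate peak. Counted within the strongest peaks of each replicate, the gene held 13, 14 and 13 summits. Longer genes have more room for summits, so E2f1 was set beside the 875 other protein-coding genes of 0.5 to 2 times its length. Their median was 1 IDR summit, and 7 of them (0.8%) held 15 or more, the highest being 28.

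**Figure D3:**
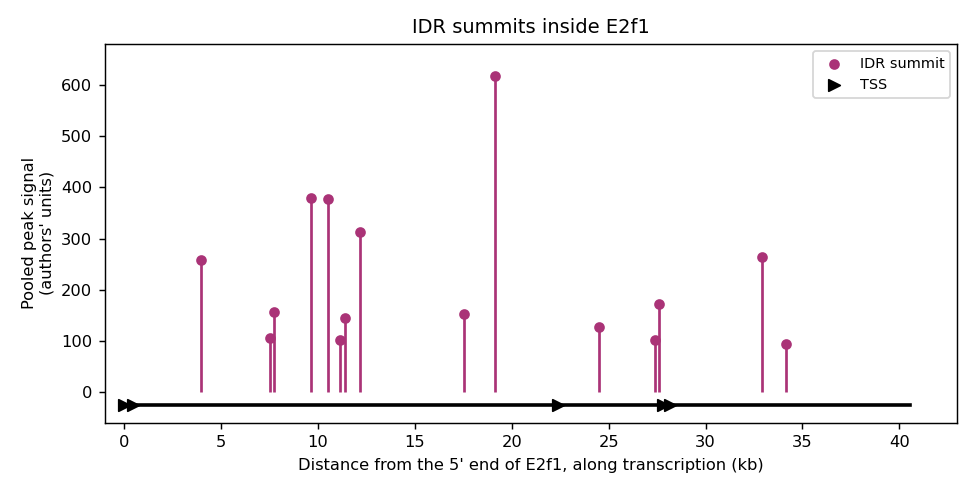
Stems give the pooled signal (vertical axis, the authors' units) of the 15 IDR summits inside E2f1 by distance from its 5′ end along transcription (horizontal axis, kb), with triangles at its 5 TSSs. The tallest, at 617, stands between TSSs, and the summits spread over 30203 bp.

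Over the whole list an IDR summit inside the gene was found for 6 of 34 genes (17.6%), against 16.3% of protein-coding genes: dup, geminin, CycE, stg, E2f1 and polo. The pooled relaxed list had a summit inside 7 of the genes (29.8% of protein-coding genes). The full lists of replicates 1, 2 and 3 had one inside 6, 16 and 10 of them, where 32.3%, 35.3% and 32.6% of protein-coding genes had one. Their strongest peaks had one inside 5, 8 and 6, where 15.2%, 18.0% and 16.9% had one. In the full lists the share of the listed genes was above the background in replicate 2 alone. CycE, with 20570 bp, held 3, and 21.8% of genes of 0.5 to 2 times its length held as many. Stg, the Cdc25 phosphatase that activates Cdk1, was just outside the 500 bp limit. The IDR summit nearest to its TSSs lay 525 bp upstream (chr3R:29256138-29256507), against 471 bp for CycE just inside. That peak had a signal of 714 and rank 533, stronger than any of the 12 genes' promoter peaks, and ranked 466, 415 and 758 in the replicates. It also lay upstream of CG45544, a gene on the other strand that starts 685 bp from stg and counts this peak as its own. A further IDR summit of stg lay in an intron, with a signal of 239 and replicate ranks of 5835, 3678 and 2127. Within 500 bp stg had a weak pooled peak, of rank 23617.

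In the group of kinetochore, checkpoint and division genes, Incenp and tum had IDR promoter peaks. Incenp, the scaffold of the chromosomal passenger complex, had 2 summits between its TSS and that of its neighbour. The stronger (chr2R:7278093-7278320, signal 245, rank 2896) ranked 1739, 8237 and 2677 in the replicates, and the other (chr2R:7278200-7278629) had a signal of 134. Tum, a subunit of centralspindlin, had a peak (chr2R:13858670-13858810) with a signal of 197, rank 3780 and replicate ranks of 3083, 5479 and 3728. Pav, the kinesin that forms centralspindlin with tum, had no promoter peak in any list. The same held for the checkpoint protein mad2. The checkpoint kinase BubR1 had none in the pool, with ranks of 5570 and 8859 in replicates 1 and 2 and none in replicate 3. Fzy, the Cdc20 activator of the anaphase-promoting complex, had a peak in replicate 2 alone at rank 6041. Cid, the centromeric histone H3, likewise had one in replicate 2 alone, at rank 16725.

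Over the list, 8 genes had a pooled promoter peak without an IDR one, namely Orc1, PCNA, CycA, CycB, CycD, Cdk2, stg and aurB, with pooled signals up to 85.4 and ranks from 9210 to 23617. A pooled promoter peak was found at 58.8% of the list and 42.5% of protein-coding genes, and an IDR one at 35.3% and 24.3%. A further 14 genes of the list had no pooled promoter peak. Of these, 6 had none in any of the 5 lists (17.6% of the list, against 39.8% of protein-coding genes): Orc5, Mcm3, Mcm7, PolA1, mad2 and pav. A relaxed list ends at rank 30000, so absence from it does not show that signal is absent. Nor does absence from the pool always go with low ranks in the replicates, as the peaks of dpa show. The remaining 8 had a peak in replicate 2, and of them dpa and BubR1 also had one in replicate 1 and Mcm6 one in replicate 3. Replicate 2 had promoter peaks at the most genes in its full list, with 27 of 34, where 50% of protein-coding genes had one. The full list of replicate 1 had 19 (37.9% of protein-coding genes) and that of replicate 3 had 20 (46.1%).

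The strongest IDR promoter summit of each of the 12 genes lay upstream of the closest own TSS, at a median of 163.5 bp. For dup, geminin, CycE, E2f1 and polo that was an inner TSS, and the summit lay inside the gene. For all protein-coding genes with an IDR promoter peak, 82.8% lay upstream, with a median position 130 bp upstream. The median pooled signal was 245 for the 12 genes and 208 for all such genes, and the median ranks were 2894 and 3540. The strongest of the 12, RnrS with a signal of 328, compares with a highest promoter signal of 4480 over all genes.

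Many of these promoters are shared with a neighbour. A protein-coding gene on the other strand started within 1000 bp upstream of 18 of the 34 genes (52.9%), an arrangement called head-to-head, against 36.2% of protein-coding genes. An IDR promoter peak was found at 9 of these 18 (50%), against 38.2% of head-to-head genes overall. It was found at 3 of the other 16, CycE, E2f1 and polo (18.8%), against 16.4% of other genes. Head-to-head genes thus had IDR promoter peaks more often both in the list and in the genome at large, and no test was made of the difference within the list. A window around the TSS of such a gene also covers its neighbour's promoter.

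The summit lay between the TSSs of the pair in 8 of the 9. In 5 of these the gene of the list was closer to the summit. For Mcm2 the summit was 133 bp from its own TSS and 386 bp from that of RPA1, the large subunit of the single-strand binding protein of replication forks. For RnrS the distances were 196 bp and 419 bp to CG34231, for tum 65 bp and 198 bp to the NEDD8-activating enzyme subunit Uba3, and for aurA 127 bp and 192 bp to CG3281. For Cdk1 they were nearly equal, 198 bp and 202 bp to the mitochondrial ribosomal protein gene mRpS7. In the other 3 the neighbour was closer. The dup summit lay 23 bp from the TSS of the kinase gene SRPK and 87 bp from an inner TSS of dup, the Mcm5 summit 64 bp from that of the arginine methyltransferase gene Art1, and the stronger Incenp summit 111 bp from that of Br140. For these 8 pairs the lists cannot tell which gene a peak belongs to. Geminin, the ninth, had its summit 129 bp inside the gene and not between the TSSs.

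Short motifs were searched on both strands from 250 bp upstream to 50 bp past every TSS of each gene. The letters of none of them contain another's, but matches of different motifs may overlap. The DRE was found in 8 of 34 promoters (23.5%), against 10.2% of protein-coding genes: Orc2, Orc5, PolA1, PCNA, CycA, Cdk2, BubR1 and mad2. None of the 8 had an IDR promoter peak, whereas 37.1% of all protein-coding genes with a DRE had one. The PolA1 stretch shown holds the DRE at 2 places. E2F sites, taken as TTTCCCGC, TTTGGCGC, TTTCGCGC or TTTGCCGC, were found at 13 of 34 (38.2%), against 8.68% of genes. They were split between 5 genes with an IDR peak (dup, Mcm2, Mcm5, RnrS and CycE) and 8 without (Orc1, Orc5, Mcm3, dpa, Mcm6, RnrL, CycB and stg). Of all protein-coding genes with an E2F site, 31.9% had an IDR promoter peak.

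The core promoter element known as motif 1, here GGTCACAC, was found at 8 genes (23.5%, against 8.69%), of which tum had an IDR peak, whereas 36.6% of all protein-coding genes with this motif had one. The CHR was found at 21 genes (61.8%, against 46.1%), 8 of them with an IDR peak, beside 27.1% of all genes with a CHR. TATAAA was found at 19 (55.9%, against 51.2%), 7 of them with an IDR peak, beside 26.2% of all genes with TATAAA. The GAGA repeat GAGAGAG was found at CycE and E2f1 (5.88%, against 9.06%), and the E-box CACGTG at none (5.29% of genes). Within 100 bp of the 14 IDR promoter summits of the 12 genes, the CHR was found at 10 (71.4%), against 30.7% of 3307 IDR summits within 500 bp of any TSS. TATAAA was found at 7 of the 14, against 34.4% of those summits, an E2F site at that of dup (7.14%, against 3.60%), and the DRE at none (6.02%). Both the CHR and TATAAA are short and rich in A and T. The median GC content of the promoters was 33.7% for the 12 genes, 36.2% for the other 22 and 37.7% for all protein-coding genes with an IDR promoter peak. It was taken at the outermost TSS of each gene only, whereas the summits of dup, geminin, CycE, E2f1 and polo lay at inner TSSs. The part of base composition in the motif counts was not tested, and summits at 1 gene are not independent.

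**Figure D4:**
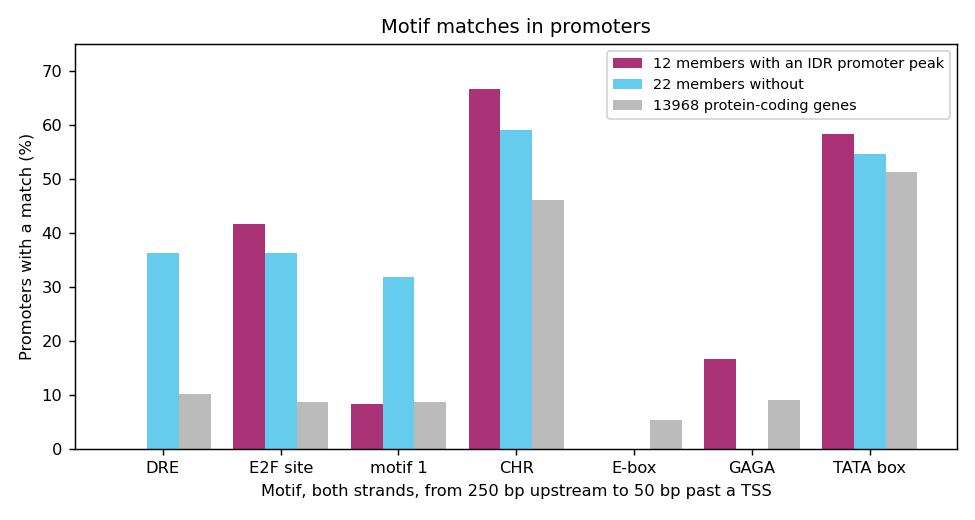
Bars give the percentage of promoters with a motif on either strand (vertical axis) for 7 motifs (horizontal axis), in the 12 genes with an IDR promoter peak, the other 22 and all 13968 protein-coding genes. The DRE bar is at 0 for the 12 genes, and the CHR and TATA box are common in all 3 groups.

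Other genes of the cell cycle were looked at through a list of 122. An IDR promoter peak lay at 36 of them (29.5%), between the 35.3% of the 34 genes and the 24.3% of all protein-coding genes. By role the counts were 7 of 31 for replication (22.6%), 1 of 4 for nucleotide synthesis, 11 of 36 for cyclins, kinases and regulators (30.6%) and 17 of 51 for kinetochore, spindle and division (33.3%). Up to 3 genes per role with the strongest IDR promoter peaks are named, some of them stronger than RnrS. In replication these were PolD2, a subunit of DNA polymerase delta, with a signal of 564, and the topoisomerase Top1 with 394. The next, RPA1, shared the Mcm2 peak. For the spindle and chromosomes the 3 strongest were the condensin subunit SMC2 with 546, the gamma-tubulin gammaTub23C with 527 and the centrosomal protein tacc with 500. For kinases and regulators the strongest were Cdc16, of the anaphase-promoting complex, with 295, and Cdk12 and the centriole kinase SAK, which share a peak with a signal of 248. For nucleotide synthesis it was dUTPase with 167.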

How the data were processed

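Peak lists of anti-GFP ChIP-seq in 3 replicates were used. Per the text deposited with each sample, the authors mapped reads to dm6 and dm3, called relaxed peaks per replicate and in the pool of replicates against 1 control alignment, and derived the IDR set from these lists. Aligner, peak caller and IDR cutoff: not given in the sources used here. In these lists the deposited signal is the enrichment score of each peak. Summits are the deposited offsets, written 1-based. The 5 dm6 lists were used, and the dm3 lists were not used here. Depth is unknown, and no interval is given.

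Genes, TSSs and exons came from Ensembl release 115 of the same assembly (18277 genes, 24111 TSSs). An IDR peak was matched to the strongest replicate peak with a summit within 200 bp. For leaving out replicates it had to overlap a peak among the strongest of each other replicate, by at least 50% of either peak. Counts were set beside those of all protein-coding genes. With 1 group and members chosen by name, no test was made.

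The genes, the list of 122, the motifs and the sites were chosen with earlier results of these data known. By the rule for named genes, all 34 are accounted for, those with IDR promoter peaks in full, with up to 3 other cell cycle genes per role, genes that share a summit, and sequences of up to 6 strongest promoters outside 2R. The dpa comparison and the promoters of Orc5, PolA1 and mad2 were added after values were seen. The labels number the libraries as biological replicates and say no more of their origin, so the spread between them may in part be technical. Alternatives were other TSS windows, stricter peak sets, other TSS rules and leaving out each replicate. Python 3.11.15 with numpy 2.4.6, pandas 2.3.3 and matplotlib 3.10.9 was used, and the assignment of summits was tested on simulated peaks.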

Additional observations from a re-analysis of the deposited data

How the results depend on the processing

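The count of 12 genes with an IDR promoter peak ran from 8 to 13 over all settings tried, and without 1 replicate it ran from 8 to 10. For the latter the IDR set, made from all 3 replicates, was not called again. Its peaks were kept where they overlapped the strongest peaks of both other replicates, so genes could only be lost. Without replicate 1 Mcm5 and CycE were lost, without replicate 2 geminin and polo, and without replicate 3 all 4. With a window of 1000 bp stg was added, and with 200 bp Mcm5 and CycE were lost. The share of all protein-coding genes ran from 14.0% to 28.2% over the same settings. The count with a summit inside the gene was 6, and 4 to 6 without 1 replicate. The pooled relaxed count was 20, and 16 to 20 under the alternatives. The mean over replicates was 13.0 genes, and 12.5 to 13.5 without 1 replicate. It was 9.33 genes with a window of 200 bp and 14.3 with 1000 bp, beside 17.9% and 29.0% of protein-coding genes. With all peaks of each replicate list in place of the strongest it rose to 22.0 genes, beside 44.7% of protein-coding genes, since more peaks are counted. With a gap of up to 500 bp, chosen after seeing the data, 6 of 12 head-to-head genes had an IDR promoter peak, against 41.5% of such genes overall. No paired analysis was possible because the series has 1 group. Peaks below rank 30000 and read depth are outside what these lists show.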
